A study of Mus musculus with 6 samples.

Results

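The ZBTB family is a group of transcription factors that carry a BTB domain and zinc fingers, and here it is described in mouse embryonic stem cells (mESCs) with and without a mutation at one of its own members, Zbtb24. Members were the rows of the count table whose Ensembl identifier belongs to a protein-coding mouse gene with a symbol made of Zbtb and a number. This rule took 41 of the 43309 genes in the table, of which 21461 are protein coding. Zbtb8os fits the rule by its symbol, although its product, archease, is a cofactor of the tRNA ligase and not a BTB factor. The libraries came from J1 (129SV) mESC clones grown in serum medium on gelatin without feeder cells. The control group was 3 wild-type (2lox/+) clones, which carry 1 allele of Zbtb24 flanked by loxP sites beside 1 unmodified allele. The other group was 3 clones labelled Zbtb24 knockout (1lox/1lox), in which both alleles are the form left after recombination at loxP sites. Polyadenylated RNA from 2 µg of total RNA was sequenced once per clone in a strand-specific library, so each of the 3 values in a group belongs to a separate clone.

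In ZBTB proteins the BTB domain, near the N-terminus, pairs one protein with another and binds corepressors such as BCOR or the Cullin 3 ubiquitin ligase, and the C2H2 zinc fingers near the C-terminus read DNA. Several members read CpG sites according to their methylation, and others set lineage choices in blood cells, repress genes with MYC or bind telomeres. ZBTB24 is mutated in a form of ICF syndrome (immunodeficiency, centromeric instability and facial anomalies), and it activates CDCA7, another gene of the same syndrome.

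The 6 libraries held 25042261 to 28838924 counted fragments each. Pluripotency markers were present in every library, with a summed level over the 10 genes of 5123 to 5233 cpm in control and 6524 to 6569 cpm in the group labelled knockout, where 9 of the 10 were higher and Zfp42 was lower. The unit cpm is the count of a gene scaled to a common library size (TMM). The 6 fibroblast markers were all lower in the libraries labelled knockout, with sums of 55.9 to 59.4 cpm in control and 9.35 to 10.1 in labelled knockout. Trophoblast markers fell in 4 of 6 cases and rose in 1, and their sums were 30.6 to 33.8 against 9.78 to 11.8 cpm. Neural markers summed to 185 to 192 against 253 to 262 cpm, mostly Tubb3. Endoderm, mesoderm and blood markers summed to at most 7.75 cpm in any library, and Afp and Neurog2 had at most 3 counts in every library. Directions of single markers are calls of the edgeR test described below, in which 34.4% of all genes tested were called higher and 35.2% lower. The part of these markers in the results below was not tested.

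Promoters are shown for the 5 members that moved furthest among those with a mean of at least 100 counts, taking the 2 largest rises away from chromosome 1, where most genes were higher, and the 3 largest falls. Each window is 300 bases of the RefSeq GRCm38.p6 assembly (mm10), from 250 bases before to 50 bases after the start of a transcript, written 5′ to 3′ in the direction of the gene. The Zbtb24 window is chr10:41450108-41450407 on the plus strand, that of Zbtb44 is chr9:31030394-31030693 on the plus strand, and that of Zbtb7b is chr3:89393329-89393628 on the minus strand. The Zbtb32 window is chr7:30598860-30599159 on the minus strand, and that of Zbtb8a is chr4:129377979-129378278 on the minus strand. Capitals mark matches, on either strand, to the GC box GGGCGG, the CCAAT box and the E-box CACGTG. Adjoining and overlapping matches run together.
Zbtb24: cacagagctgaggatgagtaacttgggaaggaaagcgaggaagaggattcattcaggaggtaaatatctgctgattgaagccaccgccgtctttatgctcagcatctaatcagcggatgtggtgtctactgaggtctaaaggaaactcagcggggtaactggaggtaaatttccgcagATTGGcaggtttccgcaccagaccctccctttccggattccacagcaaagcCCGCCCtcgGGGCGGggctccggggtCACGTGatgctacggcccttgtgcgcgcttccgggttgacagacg
Zbtb44: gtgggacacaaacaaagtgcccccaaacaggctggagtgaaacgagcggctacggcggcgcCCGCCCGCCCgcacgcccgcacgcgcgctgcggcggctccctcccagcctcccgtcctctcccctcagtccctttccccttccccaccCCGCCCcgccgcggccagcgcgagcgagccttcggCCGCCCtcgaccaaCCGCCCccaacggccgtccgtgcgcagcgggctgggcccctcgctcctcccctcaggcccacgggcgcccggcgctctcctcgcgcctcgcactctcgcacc
Zbtb7b: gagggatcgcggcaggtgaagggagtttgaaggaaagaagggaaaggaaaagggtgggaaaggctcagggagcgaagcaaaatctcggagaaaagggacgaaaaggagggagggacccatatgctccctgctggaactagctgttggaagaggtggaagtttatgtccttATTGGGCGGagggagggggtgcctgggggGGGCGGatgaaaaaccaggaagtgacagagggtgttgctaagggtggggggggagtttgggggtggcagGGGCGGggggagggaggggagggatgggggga
Zbtb32: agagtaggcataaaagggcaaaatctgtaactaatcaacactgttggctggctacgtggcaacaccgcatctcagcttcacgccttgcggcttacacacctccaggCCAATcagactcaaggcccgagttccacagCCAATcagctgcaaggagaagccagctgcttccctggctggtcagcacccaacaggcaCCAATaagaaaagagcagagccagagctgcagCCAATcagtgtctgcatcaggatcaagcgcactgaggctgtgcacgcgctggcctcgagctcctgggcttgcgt
Zbtb8a: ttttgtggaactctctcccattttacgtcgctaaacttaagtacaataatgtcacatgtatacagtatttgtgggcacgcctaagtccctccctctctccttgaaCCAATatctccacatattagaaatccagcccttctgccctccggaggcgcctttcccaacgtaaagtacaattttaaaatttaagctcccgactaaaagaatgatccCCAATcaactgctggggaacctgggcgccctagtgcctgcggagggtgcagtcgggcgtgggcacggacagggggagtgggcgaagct

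The window of Zbtb24 held 2 GC boxes, 1 CCAAT box and 1 E-box, whereas that of Zbtb44 held 5 GC boxes and neither of the others. Among the members that fell, the Zbtb7b window held 3 GC boxes and 1 CCAAT box that shares bases with one of them. Zbtb32 and Zbtb8a had no GC box in these windows, and had 4 and 2 CCAAT boxes. CAGGACC, the core of the sequence described for ZBTB24 binding, was in none of the 5 windows. These are matches of letters and say nothing of which factor binds.

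Of the 41 members, 36 had at least 1 window in the RefSeq table (49 windows), and Zbtb7c, Zbtb10, Zbtb16, Zbtb40 and Zbtb48 had none. The GC box was found on either strand in 27 of the 36, against 38.2% of the 27025 genes with a window. The CCAAT box was found in 14 members, against 41.1% of all genes, and the E-box in 5, against 8.09%. CAGGACC was found in Zbtb5 and Zbtb8os only, with 7.76% of all genes holding it, and neither of these 2 members was called as changed. The median ratio of observed to expected CpG was 0.856 over the members and 0.415 over all genes. Of the 36, 30 reached 0.6, against 38.4% of all genes. A gene with several windows took the highest ratio, and it counted for a box if any window held it. The 27025 genes were not limited to expressed coding genes. Whether these differences are particular to the family was therefore not tested. Split by the test below, the GC box was in 11 of 11 members that were higher, 7 of 11 that were lower and 8 of 13 that were not called. The E-box was in 3, 0 and 2 of them, and the CCAAT box in 5, 4 and 4. Their median CpG ratios were 0.99, 0.83 and 0.88. Whether any of these splits differ was not tested.

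The family as a whole moved little, and as many members rose as fell. The 16823 genes that reached 10 counts in any library were tested with edgeR's quasi-likelihood test, and a gene was called at a Benjamini-Hochberg adjusted p of 0.05 or less. Of the 41 members, 40 entered the test and Zbtb9 had 0 counts in all 6 libraries. Called members numbered 24 of 40 (60%), and 69.5% of all genes tested were called. Higher in the libraries labelled knockout were 12 members, against 34.4% of all genes, and lower were 12, against 35.2%. The groups did not overlap, meaning that all 3 values of one group lay above all 3 of the other, in 25 of 40 members (62.5%) and in 71.5% of all genes. Zbtb7b and Zbtb42 alone were called with a change of 2-fold or more (log2 fold change of 1 in either direction), and both were lower, whereas 17.0% of all genes were called at that size. Zbtb4 (log2 fold change -0.998) and Zbtb24 (0.989), both called, narrowly missed that size. The median absolute log2 fold change was 0.16 over the members and 0.33 over all genes tested. Where the mean reached 100 counts it was 0.15 over 35 members and 0.24 over 11115 genes, with 21 of the members called (60%) and 77.1% of those genes. The p-values rest on the spread between 3 clones per group, and in such bulk RNA a smaller share of cells with a transcript and less of it in every cell cannot be told apart.

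**Figure D1:**
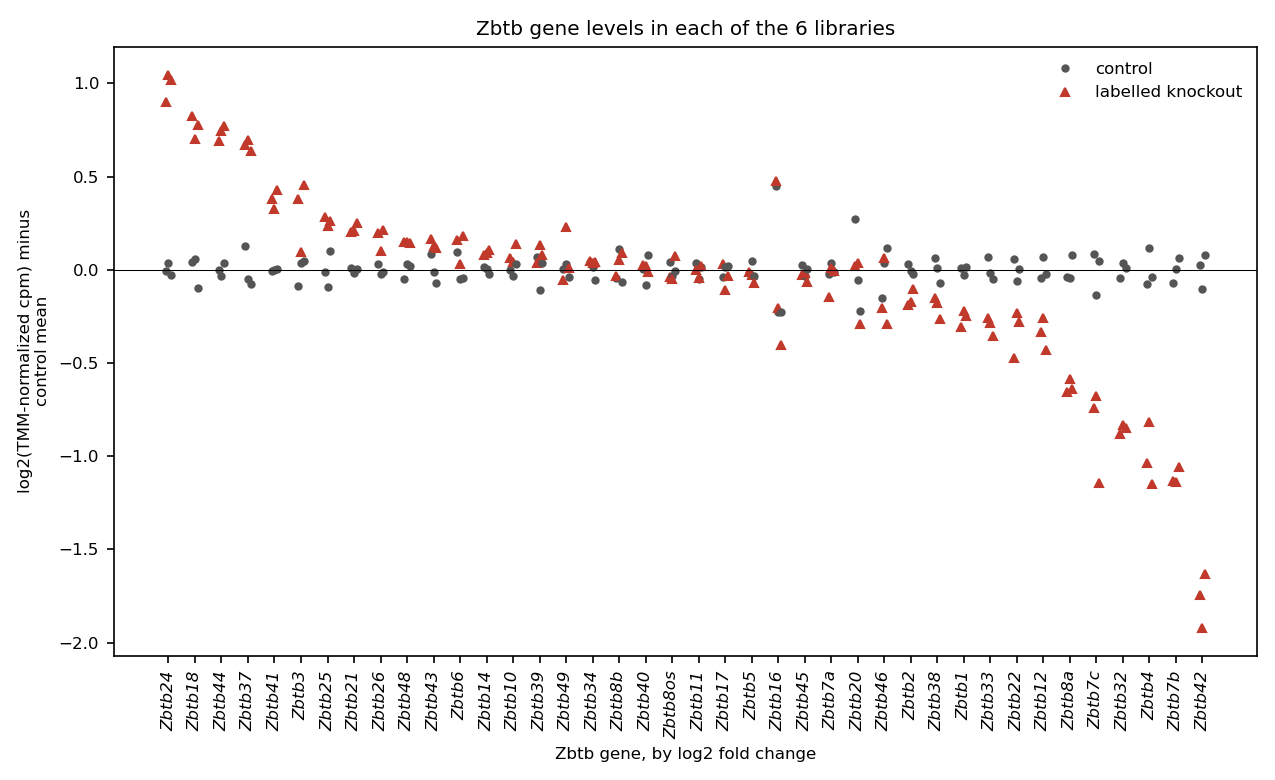
Level of each of the 40 Zbtb genes tested in each of the 6 libraries, as log2 of TMM-normalized cpm minus the mean of the 3 control libraries (vertical axis), with genes ordered by log2 fold change (horizontal axis), grey circles for control and red triangles for labelled knockout. The red triangles lie clear of the circles at both ends, from 0.99 for Zbtb24 to -1.75 for Zbtb42 in log2 fold change, and mix with them in the middle.

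Summed over the family, 1047, 1024 and 1036 cpm were counted in the control libraries and 1092, 1100 and 1109 cpm in the libraries labelled knockout. The sums did not overlap, and their means differed by 64.5 cpm. Zbtb44 alone, the member with the most counts, differed by 57.8 cpm. It made up 8.38% of the family's cpm in control and 13.1% in labelled knockout, and without it the means were 949 and 956 cpm. Each library was the highest of its group in 10 to 18 members and the lowest in 10 to 17. Across genes, squared differences relative to sampling noise were 1.91 and 1.77 for control 1 against controls 2 and 3. Between controls 2 and 3 the value was 1.14. For labelled knockout 3 against labelled knockout 1 and 2 the values were 2.24 and 2.05, with 1.36 between those 2.

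Zbtb24 (ENSMUSG00000019826), the targeted gene, had 510, 512 and 489 counts in control clones 1 to 3 and 888, 925 and 1039 counts in the clones labelled knockout 1 to 3. Every value of the second group was above every value of the first, although the second group is labelled knockout. A count per gene does not test that label. The log2 fold change was 0.99 (standard error 0.05, 95% interval 0.89 to 1.09, edgeR adjusted p = 4.32e-23), the largest rise in the family. Whether the fragments came from the recombined part of the gene cannot be read from a count per gene, and the group is called labelled knockout for this reason. Per kilobase of the longest transcript, the level went from 6.4 to 12.7 cpm per kb.

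The 4 members grouped as readers of CpG sites were all lower in the libraries labelled knockout, where 35.2% of all genes tested were called lower. This group, like the other role groups, was chosen with earlier results of these data known. Zbtb33 encodes Kaiso, which binds methylated CpG pairs, Zbtb4 and Zbtb38 encode the Kaiso-like proteins, and ZBTB2 binds promoters with unmethylated CpG islands. Zbtb33 was at 22.8, 21.4 and 21 cpm in control and 18.2, 17.8 and 17.0 in labelled knockout (log2 fold change -0.30, standard error 0.05, edgeR adjusted p = 4.75e-06). Zbtb4 had only 44, 49 and 44 counts in control and 21, 23 and 21 in labelled knockout. Both groups were tight, and the fold of 0.50 carried a wide interval for that depth (log2 fold change -1.0, 95% interval -1.42 to -0.58, edgeR adjusted p = 4.25e-05). Zbtb38 went from 22.4, 21.6 and 20.4 cpm to 19.3, 18.9 and 17.9 (log2 fold change -0.20, edgeR adjusted p = 0.00126). For Zbtb2, 32.5, 31.6 and 31.2 cpm became 27.9, 28.1 and 29.6, the smallest fall of the 4 (log2 fold change -0.15, edgeR adjusted p = 0.00287). In none of the 4 did the groups overlap, and the same held for 71.5% of all genes tested. With the replicate left out that weakened it most, the adjusted p of each of the 4 remained at or below 0.0171.

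Of the LRF group, Zbtb7b and Zbtb7c were lower and Zbtb7a was not called, where 35.2% of all genes tested were called lower. ZBTB7A, known as LRF, represses fetal globin genes and acts widely in blood cells, and ZBTB7B, known as ThPOK, commits T cells to the CD4 lineage. Zbtb7b was at 25.7, 27.1 and 28.2 cpm in control and 12.3, 12.3 and 13.0 cpm in labelled knockout. All 3 values fell to under the lowest control value by a wide margin (fold 0.46, log2 fold change -1.11, standard error 0.06, edgeR adjusted p = 9.42e-23). Zbtb7c had 124, 104 and 118 counts against 65, 64 and 53 (log2 fold change -0.85, 95% interval -1.12 to -0.58, edgeR adjusted p = 2.19e-07). Zbtb7a, with 22.9, 23.8 and 23.1 against 21, 23.4 and 23.2 cpm, had overlapping groups and a 95% interval of -0.15 to 0.06 in log2 fold change (edgeR adjusted p = 0.441).

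Among 5 members known from blood and immune cells, Zbtb32 and Zbtb1 were lower and Zbtb16, Zbtb20 and Zbtb46 were not called. Of all genes tested, 69.5% were called in either direction and 35.2% were called lower. Zbtb32, whose product restrains activated lymphocytes, was at 35.6, 37.5 and 36.9 cpm in control and 19.9, 20.6 and 20.3 cpm in labelled knockout. The spread within each group was under 1 cpm (SD 0.99 and 0.34) and the groups were far apart (log2 fold change -0.85, standard error 0.05, edgeR adjusted p = 1.62e-21). Zbtb1, needed for lymphoid development, went from 28.5, 27.7 and 28.6 cpm to 22.9, 24.3 and 23.8 (log2 fold change -0.26, standard error 0.05, edgeR adjusted p = 5.97e-06). Zbtb16, encoding PLZF, a factor of innate-like T cells, had 10 to 18 counts in every library. At that depth its 95% interval ran from -0.75 to 0.67 in log2 fold change, so no difference short of that was detectable. Zbtb20, a factor of plasma cells and of liver, had 55 to 81 counts (interval -0.40 to 0.22), and Zbtb46, a marker of classical dendritic cells, had 111 to 146 (interval -0.37 to 0.08). The groups of all 3 overlapped, whereas 71.5% of all genes tested had groups that did not. Spi1, Cd3e and Ptprc, markers of blood cells, had at most 31 counts in any library.

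Zbtb18 and Zbtb42, which encode a closely related pair of repressors, moved in opposite directions. ZBTB18, also called RP58, is needed for cortical neurons, and ZBTB42 is known from skeletal muscle. Zbtb18, on chromosome 1, was at 20.9, 21.1 and 19.0 cpm in control and 36.0, 33.0 and 34.7 in labelled knockout (log2 fold change 0.77, standard error 0.05, edgeR adjusted p = 8.2e-19). Zbtb42, on chromosome 12, had 66, 59 and 67 counts in control and 18, 15 and 21 in labelled knockout. It was the largest fall of the family (fold 0.30, log2 fold change -1.75, 95% interval -2.15 to -1.35, edgeR adjusted p = 8.96e-11). Per kilobase, Zbtb18 rose from 4.11 to 7.0 cpm per kb and Zbtb42 fell from 0.664 to 0.196, so the level of the pair in control already differed in favour of Zbtb18.

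No call was made among Zbtb17, Zbtb5 and Zbtb49, whereas 69.5% of all genes tested were called, 34.4% as higher and 35.2% as lower. Zbtb17 encodes MIZ1, the partner through which MYC represses genes, and ZBTB5 and ZBTB49 act on the cell-cycle inhibitor gene Cdkn1a. With edgeR, 0 of the 3 passed, 0 had an unadjusted p under 0.05, and DESeq2 called none either. Zbtb17 was at 37.3, 38.6 and 38.9 cpm in control and 39.1, 35.5 and 37.4 in labelled knockout, with overlapping groups (95% interval -0.12 to 0.05 in log2 fold change). The intervals were -0.19 to 0.12 for Zbtb5 and -0.11 to 0.23 for Zbtb49. Of 3 members associated with telomeres, Zbtb48 (TZAP, which trims telomeres) was slightly higher, at 20.4, 21.6 and 21.5 against 23.5, 23.4 and 23.4 cpm. The groups did not overlap, but the rise was small (log2 fold change 0.15, standard error 0.05, edgeR adjusted p = 0.00944), and its adjusted p was 0.0621 with DESeq2 and 0.0565 without control replicate 1. Zbtb10 (interval -0.02 to 0.18) and Zbtb40 (interval -0.09 to 0.11) were not called.

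**Figure D2:**
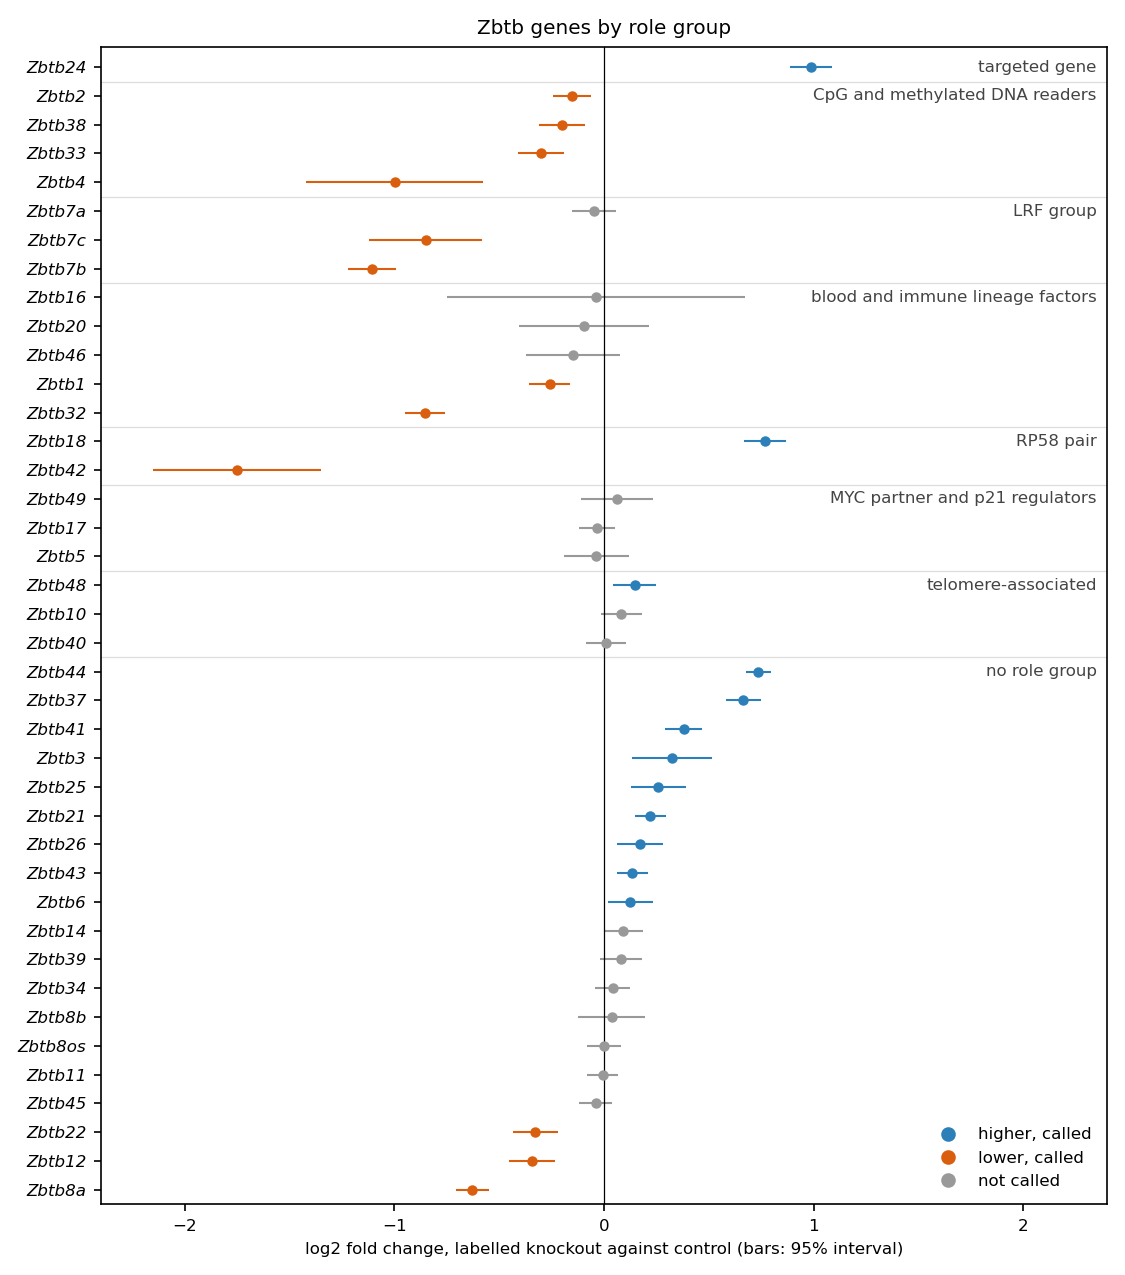
Log2 fold change of each of the 40 Zbtb genes tested, labelled knockout against control (horizontal axis; points are edgeR estimates over 3 libraries per group, bars their 95% intervals), grouped by role (vertical axis) with blue for called higher, orange for called lower and grey for not called. The 4 CpG readers all lie left of 0, the RP58 pair lies on both sides, from 0.77 to -1.75, and the MYC partner group sits across 0. Role groups were chosen with earlier results of these data known.

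Of 19 members placed in no role group, 9 were higher, 3 were lower and 7 were not called, with 34.4% of all genes tested called higher and 35.2% lower. Zbtb44 rose from 86.7, 84.8 and 88.9 cpm to 140, 145 and 148, values separated by many times the spread within either group (SD 2.02 and 3.89 cpm). Its log2 fold change was 0.74 (standard error 0.03, edgeR adjusted p = 4.74e-27), the smallest p in the family. Zbtb37 was at 40.1, 35.4 and 34.7 cpm in control and 58.3, 59.5 and 57.1 in labelled knockout (log2 fold change 0.66, standard error 0.04, edgeR adjusted p = 2.21e-19). For Zbtb41 the values were 27.7, 27.8 and 27.9 against 36.1, 34.8 and 37.3 cpm (log2 fold change 0.38, standard error 0.04, edgeR adjusted p = 1.89e-10). Both lie on chromosome 1. Smaller rises, with log2 fold changes from 0.13 to 0.33, were called for Zbtb3, Zbtb25, Zbtb21, Zbtb26, Zbtb43 and Zbtb6. Zbtb21 was the most precise of them, at 46.5, 45.6 and 46.2 against 53.1, 53.2 and 54.8 cpm (log2 fold change 0.22, standard error 0.04, edgeR adjusted p = 7.77e-07). Zbtb3 rose with a wider spread, from 156, 166 and 167 counts to 200, 155 and 228 counts, where the value of 155 came from the shallowest library and is 6.30 cpm, just above the highest control value of 6.08 (log2 fold change 0.33, standard error 0.09, edgeR adjusted p = 0.00236). Zbtb6 was the only called member whose groups overlapped, at 23.1, 20.9 and 20.9 against 24.2, 22.1 and 24.5 cpm (log2 fold change 0.13, edgeR adjusted p = 0.0345), and its call was lost in 7 of the alternative tests.

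Lower in this set were Zbtb8a, Zbtb12 and Zbtb22. Zbtb8a was at 57.1, 56.8 and 62.1 cpm in control and 37.3, 39.1 and 37.6 in labelled knockout. Its lowest control value was well above its highest value in the other group (log2 fold change -0.63, standard error 0.04, edgeR adjusted p = 3.03e-19). Zbtb12 went from 23.9, 25.8 and 24.3 cpm to 19.6, 20.6 and 18.3 (log2 fold change -0.34, edgeR adjusted p = 2.28e-07). Zbtb22 went from 27.7, 25.6 and 26.7 cpm to 19.2, 22.7 and 21.9 (log2 fold change -0.33, edgeR adjusted p = 6.3e-07). Zbtb12 and Zbtb22 are both on chromosome 17, where the median gene had a log2 fold change of 0.00. Of the exon bases of Zbtb22, 5.57% are shared on the same strand with Tapbp, and fragments there were not counted for either gene.

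The 16 members that were not called had log2 fold changes between -0.15 and 0.09. Of these, 10 had a mean of at least 500 counts, and their 95% intervals together spanned folds of 0.901 to 1.14. They were Zbtb7a, Zbtb8os, Zbtb10, Zbtb11, Zbtb14, Zbtb17, Zbtb34, Zbtb39, Zbtb40 and Zbtb45. Zbtb11, a factor needed for mitochondrial respiration, was at 56.7, 53.5 and 55.9 cpm in control and 55.3, 53.8 and 56.2 in labelled knockout. These values overlap completely, and the interval of -0.08 to 0.07 in log2 fold change is among the narrowest of the family. Zbtb14 (26.8, 26.6 and 26.2 against 28.0, 28.3 and 28.6 cpm, edgeR adjusted p = 0.077) and Zbtb10 (24.1, 23.6 and 24.6 against 25.2, 24.9 and 26.5 cpm, edgeR adjusted p = 0.131) missed the threshold although their groups did not overlap. The 6 others, with fewer counts, had intervals that together ran from 0.595 to 1.59 in fold, set by Zbtb16.

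Levels within the family spanned a ratio of 283 in control, from 25.3 cpm per kb for Zbtb8a to 0.0894 for Zbtb20. The unit is cpm divided by the length of the longest annotated transcript, which understates genes that mostly use a shorter one, and the longest of Zbtb20 has 26901 bases. After Zbtb8a came Zbtb32 (20.6 ± 0.558, SD, n = 3), Zbtb12 (13.3), Zbtb8os (11.7) and Zbtb11 (11.3). Zbtb8a, Zbtb32 and Zbtb12, the top 3, were all lower in the other group, and the most abundant member there was Zbtb8a at 16.4, followed closely by Zbtb44 at 16.3 (SD 0.409 and 0.439), a difference within their spread. Members at under 1 cpm per kb in control were Zbtb46, Zbtb7c, Zbtb42, Zbtb4, Zbtb16 and Zbtb20. The median member was at 4.25 cpm per kb and the median coding gene tested at 5.64, with 15 of 40 members above the latter. By percentile among coding genes tested, the members ran from 3.12 to 80.6, so none was among the most abundant transcripts. Zbtb9 was counted at 0 in each library, which allows up to 0.104 to 0.120 cpm at a limit of 3 counts. Such limits cover counting error only, and this one holds only if fragments of Zbtb9 could be counted under the annotation used, which was not tested.

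**Figure D3:**
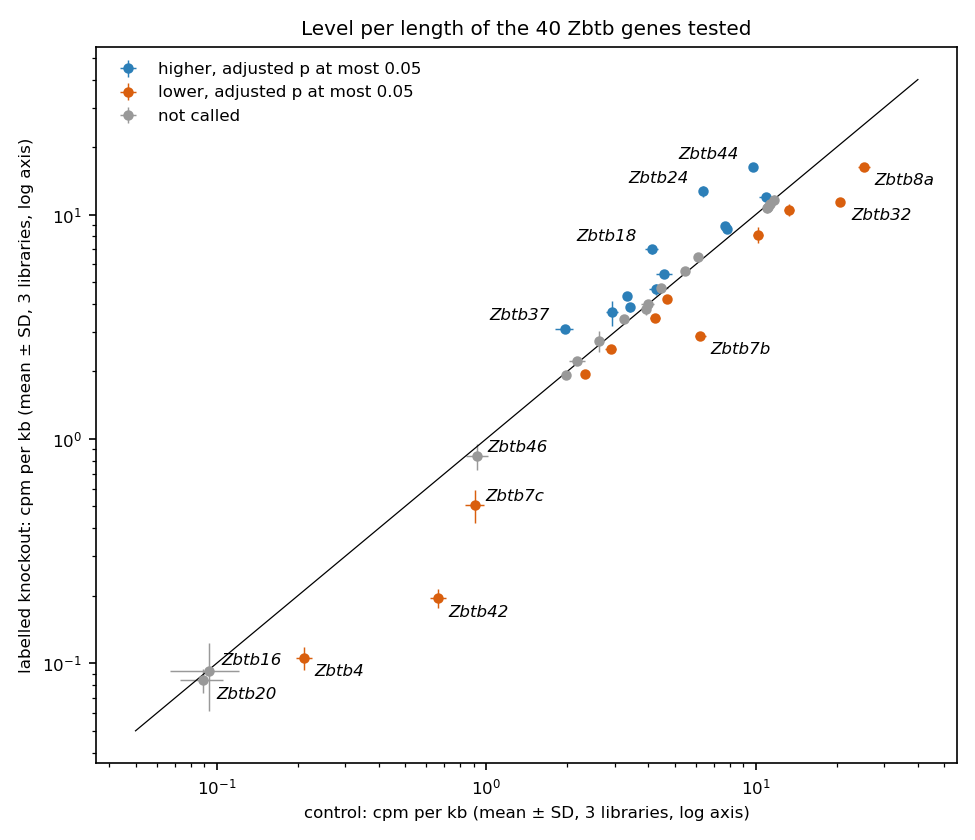
Level of the 40 Zbtb genes tested in control (horizontal axis) and labelled knockout (vertical axis), in cpm per kb of the longest transcript on log axes, as means with SD bars over 3 libraries each; blue is called higher, orange called lower, grey not called, and the line marks equal levels. Zbtb8a and Zbtb32, the highest members in control at 25.3 and 20.6 cpm per kb, lie below the line, and Zbtb44 and Zbtb24 lie above it.

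A few members lie on a chromosome whose genes moved together. On chromosome 1 the median log2 fold change over 980 genes was 0.50, with 76.7% of these genes above 0. All 3 members there, Zbtb18, Zbtb37 and Zbtb41, were higher. Set against the chromosome 1 median, Zbtb18 (0.27) and Zbtb37 (0.17) remained above it and Zbtb41 fell below it (-0.12). On the other chromosomes with members the median was between -0.07 and 0.04. There 9 members were higher, 12 were lower and 16 were not called. Over all genes tested, 34.4% were called higher and 35.2% lower. The part of the chromosome 1 shift in these 3 calls was not tested.

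**Figure D4:**
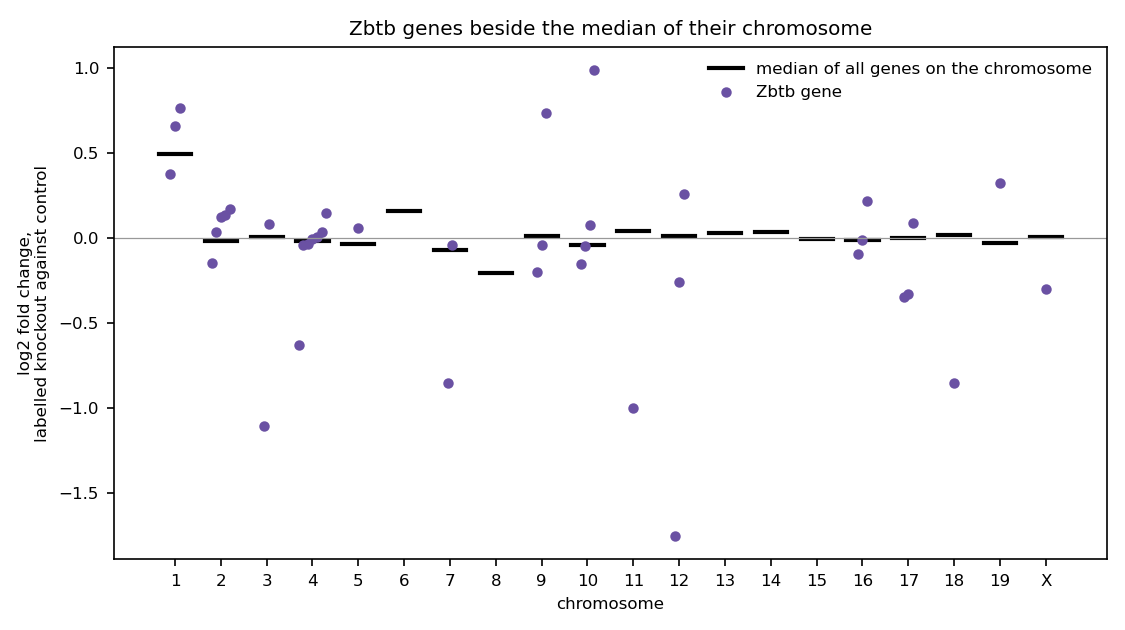
Log2 fold change of the 40 Zbtb genes tested (purple points) and the median of the genes on the same chromosome that averaged 10 counts or more (black bars), by chromosome (horizontal axis). The chromosome 1 bar stands at 0.50 among its 3 members, and the bars of the other chromosomes that hold members lie near 0 while their members spread from -1.75 to 0.99.

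Of 5 neighbouring pairs of members, 1 was called in opposite directions and 1 was called higher at both genes. In 3 only 1 gene of the pair was called. Over all genes tested, 34.4% were called higher and 35.2% lower. Zbtb25 and Zbtb1 lie on chromosome 12 back to back, with 663 bases between them, and Zbtb25 was higher (log2 fold change 0.26) where Zbtb1 was lower (-0.26). For Zbtb25 the values were 12.3, 11.6 and 13.3 cpm in control and 15.0, 14.5 and 14.8 in labelled knockout, with no overlap. On chromosome 4, Zbtb8os and Zbtb8a end in each other on opposite strands over 920 bases, and Zbtb8os, at 46.1, 43.7 and 44.6 against 43.6, 43.2 and 47.2 cpm, showed no call beside the fall of Zbtb8a. Zbtb8b, which follows at a distance of 47648 bases on the strand of Zbtb8a, was not called either (interval -0.12 to 0.19 in log2 fold change). Zbtb6 and Zbtb26 on chromosome 2 overlap on the same strand, with 449 exon bases in common, so fragments there were discarded and both values are uncertain to that extent. They had log2 fold changes of 0.13 and 0.17, both called higher. Zbtb34 and Zbtb43, also on chromosome 2 and 18962 bases apart on the same strand, had log2 fold changes of 0.04 (not called) and 0.13 (called).

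Of 8 BTB zinc finger genes known by other names, 4 were called (50%), against 69.5% of all genes tested. Bcl6b was higher, Zfp131, Hic1 and Hic2 were lower, and Bcl6, Patz1, Mynn and Gzf1 were not called. Zfp131 had 1763, 1656 and 1688 counts in control and 778, 732 and 961 in labelled knockout (log2 fold change -0.98, standard error 0.04, edgeR adjusted p = 1.02e-25), a fall like that of Zbtb7b in size. Hic1, a tumour suppressor gene, had few counts, 44, 42 and 49 against 33, 18 and 20 (log2 fold change -0.85, edgeR adjusted p = 0.000554). Its relative Hic2 had 3136, 2997 and 3078 against 2273, 2184 and 2433 counts (log2 fold change -0.35, edgeR adjusted p = 1.36e-14). Bcl6b, a relative of the germinal centre factor gene Bcl6, had 565, 530 and 566 against 746, 695 and 765 counts (log2 fold change 0.48, edgeR adjusted p = 6.38e-12). Patz1 had the most counts of the 8, at 2775 to 3209 in every library, and its interval was -0.08 to 0.04.

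Of 26 genes for partners of the BTB domain and subunits of corepressor complexes, 9 were higher, 11 were lower and 6 were not called, a called share of 76.9% against 69.5% of all genes. Ncor1, the main nuclear receptor corepressor gene, was not called (interval -0.03 to 0.07 in log2 fold change). Bcor, whose product binds the BTB domain of BCL6, fell from 2270, 2102 and 2136 counts to 1378, 1354 and 1552 (log2 fold change -0.53), and its relative Bcorl1 rose (0.58). Largest were the falls of Mta3 (-0.92), Hdac7 (-0.83) and Mta1 (-0.78). MTA proteins are subunits of the NuRD complex, of which Chd4, the remodelling ATPase, was not called and Mbd3 was lower (-0.49). Sin3a was higher (0.39) and Sin3b lower (-0.42). Cul3 (0.59) and Hdac4 (0.47), both higher, lie on chromosome 1, near whose median of 0.50 they stand.

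The 3 other genes of ICF syndrome, Cdca7, Dnmt3b and Hells, were called lower, as were 35.2% of all genes tested, and Zbtb24 itself was higher. Cdca7 had 3880, 3907 and 3972 counts in control and 1280, 1185 and 1478 in labelled knockout (log2 fold change -1.50, standard error 0.03, edgeR adjusted p = 6.67e-38). Dnmt3b, which encodes a DNA methyltransferase, fell further (log2 fold change -2.07, standard error 0.03, edgeR adjusted p = 6.72e-47). Hells, encoding the chromatin remodeller that works with CDCA7, changed far less (log2 fold change -0.09, standard error 0.03, edgeR adjusted p = 0.00112).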

How the data were processed

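Counts of fragments per gene were made by the authors and deposited without normalization. Per the paper's methods, reads from rRNA were removed with Bowtie2 (2.1.0), the rest was mapped to mm10 with TopHat (2.0.10), and sense fragments of GENCODE Release M4 genes were counted with htseq-count (HTSeq 0.6.1) in union mode, discarding fragments at multiple genes or locations, so that shared exon bases and close copies are under-counted. The submitters' processing notes also list CASAVA 1.8.2. Symbols, coordinates and transcript lengths came from GENCODE Release M21 by Ensembl identifier (42425 of 43309 genes). A Zbtb row that is not protein coding was left out (1 row).

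Genes that reached 10 counts in any of the 6 libraries were tested in R 4.3.3 with edgeR 4.0.16 (TMM, glmQLFit, glmQLFTest, FDR of 0.05 or less by Benjamini-Hochberg adjustment). Each standard error was the log2 fold change divided by the square root of F. The procedure was tested on simulated counts, whose outcome is not given here. Libraries of a group differed by more than sampling noise and each was counted as 1 replicate. Alternatives were other scaling, DESeq2 1.42.0, other filters, a minimum fold change, the replicate number as a block, each library left out and the chromosome median. Genes named are Zbtb24, the members of the role groups and related lists, the 8 largest rises and 8 largest falls among called members that average 100 counts or more and whose groups do not overlap, the highest and untested members, those with at least 500 counts that were not called, and those on chromosomes with a median beyond 0.3. Members, lists and role groups were chosen with earlier results of these data known. The values of 1 gene of the partner list are not reported here.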

Additional observations from a re-analysis of the deposited data

How the results depend on the processing

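Counts of called members were 22 to 24 under every alternative test except a minimum absolute log2 fold change of 1, which left 2 members, with 0 higher and 2 lower (Zbtb7b and Zbtb42). Zbtb4 and Zbtb24, at log2 fold changes of -0.998 and 0.989, narrowly missed that minimum. The calls of 22 members, 10 higher and 12 lower, were made in the main test and in all 11 alternatives that kept every tested member. Zbtb48 lost its call with library totals (adjusted p = 0.0825), with DESeq2 (0.0621) and without control replicate 1 (0.0565). Zbtb6 lost its call in 7 alternatives, with adjusted p from 0.06 to 0.2, and Zbtb45 was called with library totals only (log2 fold change -0.09, adjusted p = 0.0445). Library totals moved the median log2 fold change of all genes from 0.01 to -0.04. Against the chromosome 1 median, Zbtb41 changed sign, to -0.12. With the replicate number as a block, 24 members were called, 12 higher and 12 lower, so the block changed no call among the members. The numbers do not pair the clones: deviations of same-numbered clones correlated at 0.01, 0.07 and 0.02 across genes. Members with under 100 counts on average, among them Zbtb16 and Zbtb20, are limited by depth.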

Other observations

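BTB domain genes without zinc fingers, most of which encode adaptors of Cullin 3 or channel-associated proteins, were tested in the same fit. Of 36 Klhl genes, 27 entered edgeR's test, with 10 called higher in the group labelled knockout and 9 called lower (70.4% called). Of 22 Kctd genes, 20 were tested, with 4 higher and 9 lower (65%), and of 51 Btbd and Kbtbd genes 19 were tested, with 4 higher and 10 lower (73.7%). These shares lie near the 69.5% called over all genes tested. Median absolute log2 fold changes in these sets were 0.45, 0.29 and 0.43, against 0.33 over all genes tested and 0.16 over the Zbtb genes. Kbtbd11 had 1359, 1390 and 1421 counts in control and 149, 138 and 158 in labelled knockout (log2 fold change -3.15). Klhl13, an adaptor used in mitosis, had 12119, 11786 and 11996 counts against 2641, 2435 and 2847 (log2 fold change -2.11). Klhl3 rose from 34, 26 and 34 to 83, 68 and 91 counts (log2 fold change 1.43). Klhl20 also rose (0.95), on chromosome 1. These 4 were chosen after their values were seen.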
